A study of Mus musculus with 4 samples.

Results

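The genes of the mouse major histocompatibility complex (MHC) that encode, assemble or regulate class I and class II molecules were examined in RNA from the prelimbic cortex. Members were the listed genes whose symbol starts with H2- (29 genes) together with B2m, Cd74, Ciita, Tap1, Tap2, Tapbp, Tapbpl and Nlrc5 (8 genes). This gave 37 genes of the 19175 listed in either deposited table. On the class I side there were 2 classical heavy chains, 18 non-classical heavy chain symbols and 6 assembly or regulatory genes. Of the 18, H2-K2 and H2-M6-ps are annotated as unprocessed pseudogenes, and H2-Bl, H2-Q5 and H2-T10 as polymorphic pseudogenes. They are counted with the heavy chains below. On the class II side there were 9 chain genes and 2 assembly or regulatory genes. GENCODE M21 has 45 symbols starting with H2-, and 32 of the 37 members lie on chromosome 17.

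All libraries came from C57BL/6 mice aged 8 weeks, and there was 1 library for each of 4 groups. The control and susceptible groups belong to a chronic social defeat experiment, where repeated attack by a larger mouse leaves some animals socially avoidant, and these are termed susceptible. The stress tag in the labels is identical for control and susceptible, so whether control mice were defeated is unclear. The AAV-GFP and AAV-CDYL groups received adeno-associated virus for green fluorescent protein or for CDYL, a chromodomain protein that acts as a chromatin corepressor. The virus serotype and promoter, the time after injection, and whether a library was 1 mouse or a pool are not stated by the labels.

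Class I molecules pair a heavy chain with beta 2-microglobulin and show peptides from the cell's interior to CD8 T cells and natural killer cells. The peptides are cut by the proteasome, carried into the endoplasmic reticulum by the transporter of Tap1 and Tap2, and loaded with the help of tapasin, the product of Tapbp. Class II molecules pair an alpha with a beta chain, travel with the invariant chain encoded by Cd74, and show peptides from endosomes to CD4 T cells. In the healthy brain both classes are low in most neurons, and microglia, border macrophages and infiltrating leukocytes are the best known class II sources. Nlrc5 is a transcriptional coactivator of class I genes, and Ciita has that role for class II genes.

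Promoter sequences are shown first because MHC promoters are known for short elements through which class-specific, interferon and inflammatory signals act, and the members differ in which of these letters they hold. RefSeq promoters on build GRCm38.p6 matched 24 of the 37 members. The last 200 bases before the annotated start are printed 5′ to 3′ on the gene's strand for 5 class I genes and 3 class II genes, and capitals mark every match to the 4 motifs named after them. The H2-K1 window is chr17:34000348-34000547 on the minus strand, H2-D1 is chr17:35262894-35263093 on the plus strand and H2-Q7 is chr17:35438955-35439154 on the plus strand. The B2m window is chr2:122147487-122147686 on the plus strand and that of H2-T23 is chr17:36032702-36032901 on the minus strand. For class II, H2-Eb1 is chr17:34305667-34305866 on the plus strand, H2-DMb1 is chr17:34152991-34153190 on the plus strand and H2-Aa is chr17:34287824-34288023 on the minus strand.
H2-K1: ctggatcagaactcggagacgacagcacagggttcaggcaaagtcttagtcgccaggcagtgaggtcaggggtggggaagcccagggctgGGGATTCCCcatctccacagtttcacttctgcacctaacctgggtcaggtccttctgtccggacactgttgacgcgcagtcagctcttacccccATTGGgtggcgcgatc
H2-D1: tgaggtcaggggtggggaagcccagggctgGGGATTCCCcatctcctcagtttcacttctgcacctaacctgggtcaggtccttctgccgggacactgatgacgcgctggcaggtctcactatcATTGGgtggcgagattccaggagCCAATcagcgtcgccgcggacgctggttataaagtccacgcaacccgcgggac
H2-Q7: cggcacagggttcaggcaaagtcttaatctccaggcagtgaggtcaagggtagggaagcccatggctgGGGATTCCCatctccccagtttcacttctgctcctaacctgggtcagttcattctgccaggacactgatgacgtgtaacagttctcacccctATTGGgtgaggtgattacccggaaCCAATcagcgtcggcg
B2m: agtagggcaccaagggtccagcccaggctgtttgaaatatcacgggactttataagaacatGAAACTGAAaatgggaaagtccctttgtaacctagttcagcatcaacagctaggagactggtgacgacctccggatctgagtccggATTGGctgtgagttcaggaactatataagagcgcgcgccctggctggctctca
H2-T23: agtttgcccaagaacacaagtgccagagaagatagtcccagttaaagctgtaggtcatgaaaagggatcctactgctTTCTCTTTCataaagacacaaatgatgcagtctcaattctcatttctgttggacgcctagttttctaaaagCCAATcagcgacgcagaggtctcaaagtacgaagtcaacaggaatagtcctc
H2-Eb1: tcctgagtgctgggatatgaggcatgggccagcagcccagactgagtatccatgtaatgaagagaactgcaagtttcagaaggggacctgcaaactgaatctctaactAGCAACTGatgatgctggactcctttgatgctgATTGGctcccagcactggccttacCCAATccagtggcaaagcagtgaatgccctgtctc
H2-DMb1: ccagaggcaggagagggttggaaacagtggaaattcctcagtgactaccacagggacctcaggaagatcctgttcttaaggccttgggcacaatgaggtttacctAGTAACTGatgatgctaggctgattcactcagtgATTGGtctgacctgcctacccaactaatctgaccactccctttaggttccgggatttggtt
H2-Aa: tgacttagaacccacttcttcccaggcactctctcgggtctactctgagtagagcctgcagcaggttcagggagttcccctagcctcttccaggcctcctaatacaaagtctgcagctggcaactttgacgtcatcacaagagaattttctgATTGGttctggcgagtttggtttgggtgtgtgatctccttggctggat

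The motifs were searched on both strands of the 250 bases before the start, and each match describes letters, not a binding site. The kappa B word GGGATTCCC was found in 4 of the 24 members with a promoter, H2-K1, H2-D1, H2-Q6 and H2-Q7, and in 0.311% of all 27025 RefSeq promoters. All 4 genes are class I heavy chains. Their distance from the start of the kappa B word to the next ATTGG on the same strand was 94 bases in H2-K1, 94 in H2-D1, 93 in H2-Q6 and 92 in H2-Q7, so the layout was nearly the same in all 4. The Y box word ATTGG, read as CCAAT on the other strand, was in 21 of 24 members and in 34.5% of all promoters. Motif counts here and below use the first promoter entry of each gene. For H2-DMa that entry, chr17:34122582-34122881, lies far from the gene start listed at 34135182. The lack of matches in it does not describe that start.

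The X box core AGNAACNG was found in 3 of the 8 class II chain genes with a promoter, H2-Eb1, H2-DMb1 and H2-Eb2, in none of the class I genes with one, and in 14.6% of all promoters. In these 3 genes the X box core began 33, 34 and 33 bases before an ATTGG on the same strand. As the search took only this word, a gene without it is not shown to lack an X box. The word GAAANNGAA, a core of the interferon-stimulated response element, was in B2m, H2-T22 and H2-T23 and in 7.16% of all promoters. It is 1 exact form, so a gene without it is not shown to lack an interferon element. The printed H2-K1, H2-D1 and H2-Q7 windows share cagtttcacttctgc after the kappa B word, a stretch that was not among the searched words. The motifs do not overlap one another in the printed windows. Members without a promoter entry were Cd74, Ciita, H2-Ab1, H2-Bl, H2-K2, H2-M6-ps, H2-Q1, H2-Q5, H2-T10, H2-T24, Nlrc5, Tap2 and Tapbpl.

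**Figure D1:**
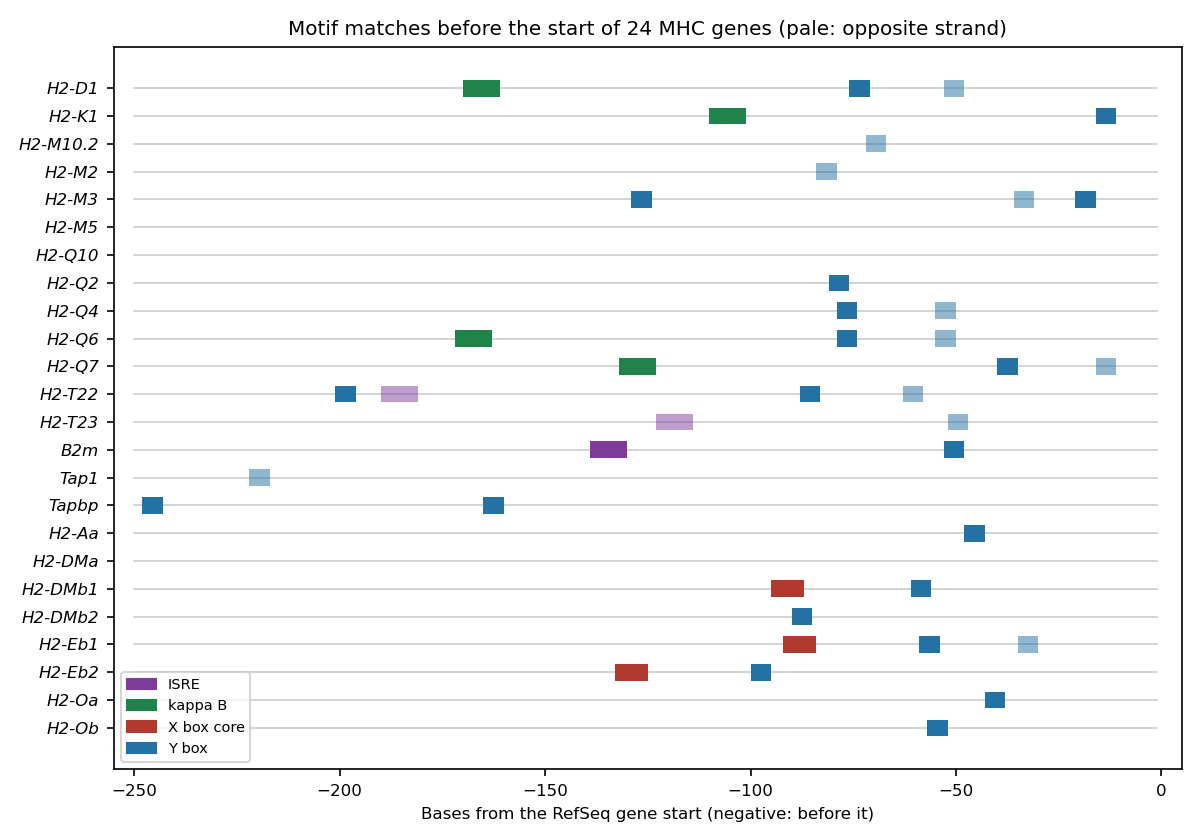
Position of motif matches in bases before the annotated start (x axis) for the 24 members with a RefSeq promoter (y axis), with 1 colour per motif and pale marks for the opposite strand. The kappa B marks appear on 4 class I heavy chain genes, each followed by an ATTGG 92 to 94 bases closer to the start. For H2-DMa the promoter entry drawn lies far from its listed gene start.

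Levels are the authors' FPKM, which scale fragment numbers by transcript length and library size, and each difference is log2(FPKM + 1) in the second library minus the first. A gene passed the floor when it reached 1 FPKM in at least 1 library of the pair, and it was called higher or lower by size when the difference was beyond 1.5-fold, 0.58 on that scale. This scale understates the change of low genes, so the plain FPKM ratio is given too, with a 95% Clopper-Pearson interval from estimated fragments that covers counting error only. With 1 library per group no difference has a replicate check and no test between conditions was possible. The effective depth read from the steps between low values was 14400000 fragments in the control library, 23500000 in the susceptible one, and 22900000 and 24000000 in the AAV-GFP and AAV-CDYL libraries. No gene above 0 in both libraries of a pair differed by less than 0.32 on the log2 ratio scale, so a gene missing from a table is not thereby shown to be alike. The median difference of all genes past the floor was 0.24 in the stress pair and 0.30 in the AAV pair. Over genes at 1 FPKM or more in the first library it was -0.29 and -0.32. Because genes with small ratios are absent, the sign of this median follows the floor. It does not measure a shift common to all genes. Cdyl itself was at 2.68 FPKM in AAV-GFP and 1052 in AAV-CDYL, and at 1.98 in control and 2.54 in susceptible.

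MHC genes stood far higher in the AAV-CDYL library than in the AAV-GFP library. All 29 members past the floor were higher by size, 19 on the class I side and 10 on the class II side, with a median difference of 2.86. Of all 8047 genes past the floor, 31.3% were higher and 14.4% lower, and no member was lower. Because a gene that reached 1 FPKM only in AAV-CDYL had to differ, the count was repeated on genes at 1 FPKM or more in AAV-GFP, where 13 of 13 members were higher against 21.2% of all genes higher and 17.4% lower. The median of these 13 was 2.78, while that of all 6679 such genes was -0.32. The 13 were 11 class I genes and 2 class II genes, Cd74 and H2-DMa. On both sides the other members past the floor passed it through AAV-CDYL alone, so the floor fixed their direction. Relative to the median of all genes past the floor, 0.30, the median of the 29 members was 2.57. Neither all-gene median measures a common shift, because genes with small ratios are absent.

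**Figure D2:**
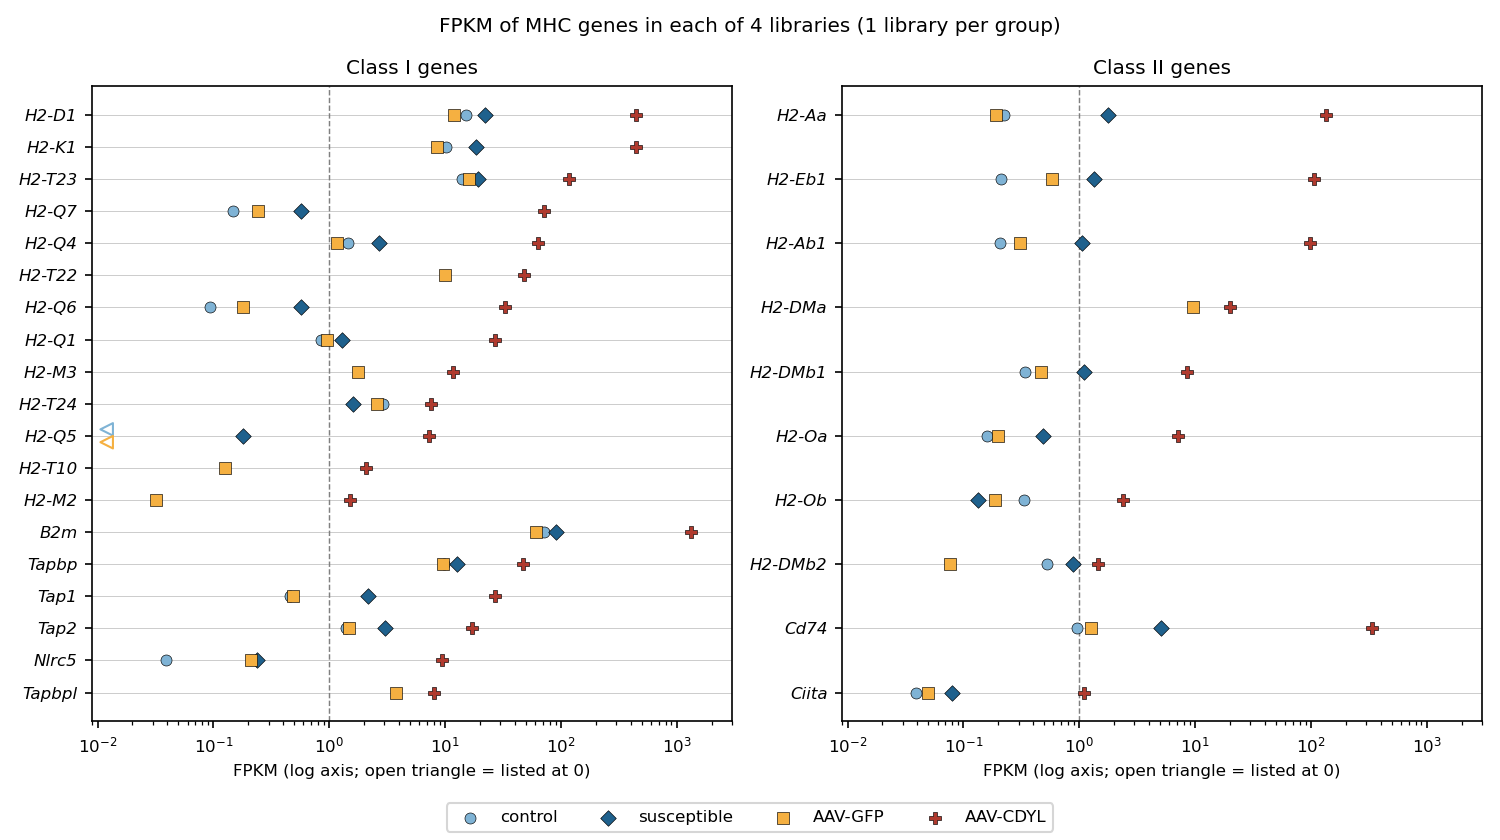
FPKM on a log x axis of the named members (y axis) in the 4 libraries, 1 point per library, with class I on the left, class II on the right and open triangles for genes listed at 0. In the AAV-CDYL library B2m is at 1325 FPKM, H2-K1 at 447, H2-D1 at 448 and Cd74 at 335, against 61.1, 8.54, 12.03 and 1.26 in AAV-GFP.

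Among classical class I chains, which present peptides to CD8 T cells, H2-K1 was at 8.54 FPKM in AAV-GFP and 447 in AAV-CDYL. Its difference was 5.55, a ratio of 52.3 (46.8 to 58.6). H2-D1, the other classical chain, was at 12.03 and 448 FPKM, a difference of 5.11 and a ratio of 37.3 (34.3 to 40.5). These chains were the most abundant heavy chains in AAV-CDYL and stood at nearly equal levels there, while the level of H2-D1 was 1.41 times that of H2-K1 in AAV-GFP.

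B2m, the light chain shared by class I molecules, was at 61.1 FPKM in AAV-GFP and 1325 in AAV-CDYL. The difference of 4.42 was a ratio of 21.7 (20.5 to 22.98). By level B2m had rank 916 of the 15396 listed genes in AAV-GFP and rank 22 in AAV-CDYL. B2m was thus already abundant and its ratio was below that of the classical heavy chains. The FPKM of B2m for each FPKM of summed heavy chains was 1.12 in AAV-GFP and 1.03 in AAV-CDYL. Against H2-K1 and H2-D1 alone it was 2.97 and 1.48.

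The peptide transporter genes differed in size. Tap1 was at 0.486 FPKM in AAV-GFP and 26.7 in AAV-CDYL, a ratio of 55.1 (38.9 to 79.8). Tap2, its partner subunit, was at 1.49 and 17.1 FPKM, a ratio of 11.5 (9.48 to 13.9). The intervals of these partner genes do not overlap, though both share a Cuffdiff locus with a neighbouring proteasome gene. Tap1 passed the floor through AAV-CDYL alone, which favours large ratios, while Tap2 reached 1 FPKM in AAV-GFP. Tapbp was at 9.51 and 47.3 FPKM, a ratio of 4.97 (4.57 to 5.43), and Tapbpl, the tapasin-related peptide editor, was at 3.76 and 8.06, a ratio of 2.14 (1.82 to 2.55). The coactivator Nlrc5 was at 0.210 and 9.44 FPKM, a ratio of 44.9 (32.7 to 65.2).

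Among non-classical heavy chains the Q and T region genes had separate ranges of ratio, and the M region overlapped both. The separation is of point ratios only, as the counting interval of H2-T10 overlaps those of H2-Q1 and H2-Q4. In the Q region only H2-Q4 reached 1 FPKM in AAV-GFP. The other Q genes past the floor passed it through AAV-CDYL alone, which favours large ratios. The Q region genes that passed the floor with a value above 0 in AAV-GFP had ratios from 28.7 to 298, the T region genes from 2.90 to 16.4 and the M region genes from 6.69 to 47.5. H2-Q7, which encodes a Qa-2 antigen, was at 0.242 FPKM in AAV-GFP and 72.0 in AAV-CDYL, a ratio of 298 (159 to 728). H2-Q6, a close paralog, was at 0.181 and 32.7, a ratio of 181 (91.3 to 380). The remaining Q genes were also higher, with H2-Q4 at 1.16 and 63.9 FPKM and H2-Q1 at 0.949 and 27.2. H2-Q5 was listed at 0 in AAV-GFP and stood at 7.27 in AAV-CDYL, so no ratio is given.

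In the T region, H2-T23, which presents class I leader peptides to the receptor of Klrd1 and Klrc1, was at 16.2 FPKM in AAV-GFP and 116 in AAV-CDYL. Its ratio was 7.21 (6.60 to 7.91), below that of every Q region gene named above even though it was the most abundant heavy chain in AAV-GFP. H2-T22, a ligand of some gamma delta T cells, was at 10.1 and 48.1 FPKM. Its relative H2-T10 was at 0.126 and 2.06, a ratio of 16.4 (6.52 to 65.6) with about 4 fragments in AAV-GFP. H2-T24 was at 2.59 and 7.50 FPKM, the lowest ratio among the heavy chains past the floor at 2.90 (2.38 to 3.57). In the M region, H2-M3, which presents N-formylated peptides, was at 1.76 and 11.8 FPKM, a ratio of 6.69 (5.06 to 8.95). H2-M2 was at 0.0320 and 1.52 FPKM, but about 1 fragment lies behind the AAV-GFP value and the interval of its ratio of 47.5 ran from 9.38 to 2185.

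Several of these values may share fragments. Of the 50-base windows in the annotated transcripts, 44.7% in H2-T22, 42.9% in H2-T10, 34.9% in H2-Q7, 32.0% in H2-Q6 and 28.8% in H2-T23 also occur in a transcript of another gene. The share was 14.3% in H2-D1 and 8.79% in H2-K1, and 0% in B2m, Cd74, H2-Aa, H2-Ab1, H2-Eb1 and H2-DMa. In addition 12 of the 37 members in the AAV table and 7 of the 28 in the stress table share a Cuffdiff locus with another gene, B2m among them. How reads were split between paralogs is not stated by the labels, so single non-classical class I levels are uncertain. The classical class I and the main class II values rest mostly or wholly on sequence that occurs in no other transcript.

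The chains of the class II molecule I-A had the largest ratios of any member, though their counting intervals overlap those of H2-Q7, H2-Q6 and Cd74. H2-Aa, the alpha chain of I-A, was at 0.191 FPKM in AAV-GFP and 134 in AAV-CDYL. Its difference was 6.83 and its ratio 705 (297 to 2141), with about 5 fragments behind the AAV-GFP value. H2-Ab1, the beta chain of the same molecule, was at 0.305 and 98.6 FPKM, a difference of 6.25 and a ratio of 323 (173 to 793). H2-Eb1, the beta chain of I-E, a molecule C57BL/6 mice do not display because their alpha chain gene is defective, was at 0.584 and 107 FPKM, a difference of 6.10 and a ratio of 184 (123 to 298). In AAV-CDYL these 3 chains stood within a range of 98.6 to 134 FPKM, while in AAV-GFP none reached 1 FPKM. They passed the floor through AAV-CDYL alone, which fixed their direction and favours large ratios.

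Cd74, whose product occupies the class II groove until it is cleaved in endosomes, was at 1.26 FPKM in AAV-GFP and 335 in AAV-CDYL. The difference of 7.22 was the largest among the members and had rank 13 of the 8047 genes past the floor, and the ratio was 266 (194 to 368). H2-Aa had rank 18, H2-Ab1 rank 26 and H2-Eb1 rank 31 in the same order, each past the floor through AAV-CDYL alone. H2-Q7 followed at rank 39 and H2-K1 at rank 47. The FPKM of Cd74 for each FPKM of these 3 chains together was 1.16 in AAV-GFP and 0.984 in AAV-CDYL.

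The genes that edit class II peptides behaved unevenly. H2-DMa, the alpha chain of the H2-DM exchange factor, was at 9.69 FPKM in AAV-GFP and 20.1 in AAV-CDYL, a ratio of 2.08 (1.85 to 2.33). It was the only class II chain gene at or above 1 FPKM in AAV-GFP and had the smallest ratio of the class. Its beta chain genes were lower in level but further apart: H2-DMb1 was at 0.470 and 8.54 FPKM, a ratio of 18.1 (10.9 to 33.2), and H2-DMb2 at 0.0762 and 1.44, a ratio of 18.9 (5.25 to 81.3) with about 3 fragments in AAV-GFP. H2-DMb1 and H2-DMb2 are close copies, and 27.2% and 29.5% of their windows occur in another transcript. H2-Oa and H2-Ob encode H2-O, the inhibitor of H2-DM, and were at 0.201 and 7.13 FPKM and at 0.188 and 2.37 FPKM. Ciita was at 0.0493 and 1.10 FPKM, a ratio of 22.2 (10.2 to 54.4), so the coactivator's own level stayed near the floor.

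**Figure D3:**
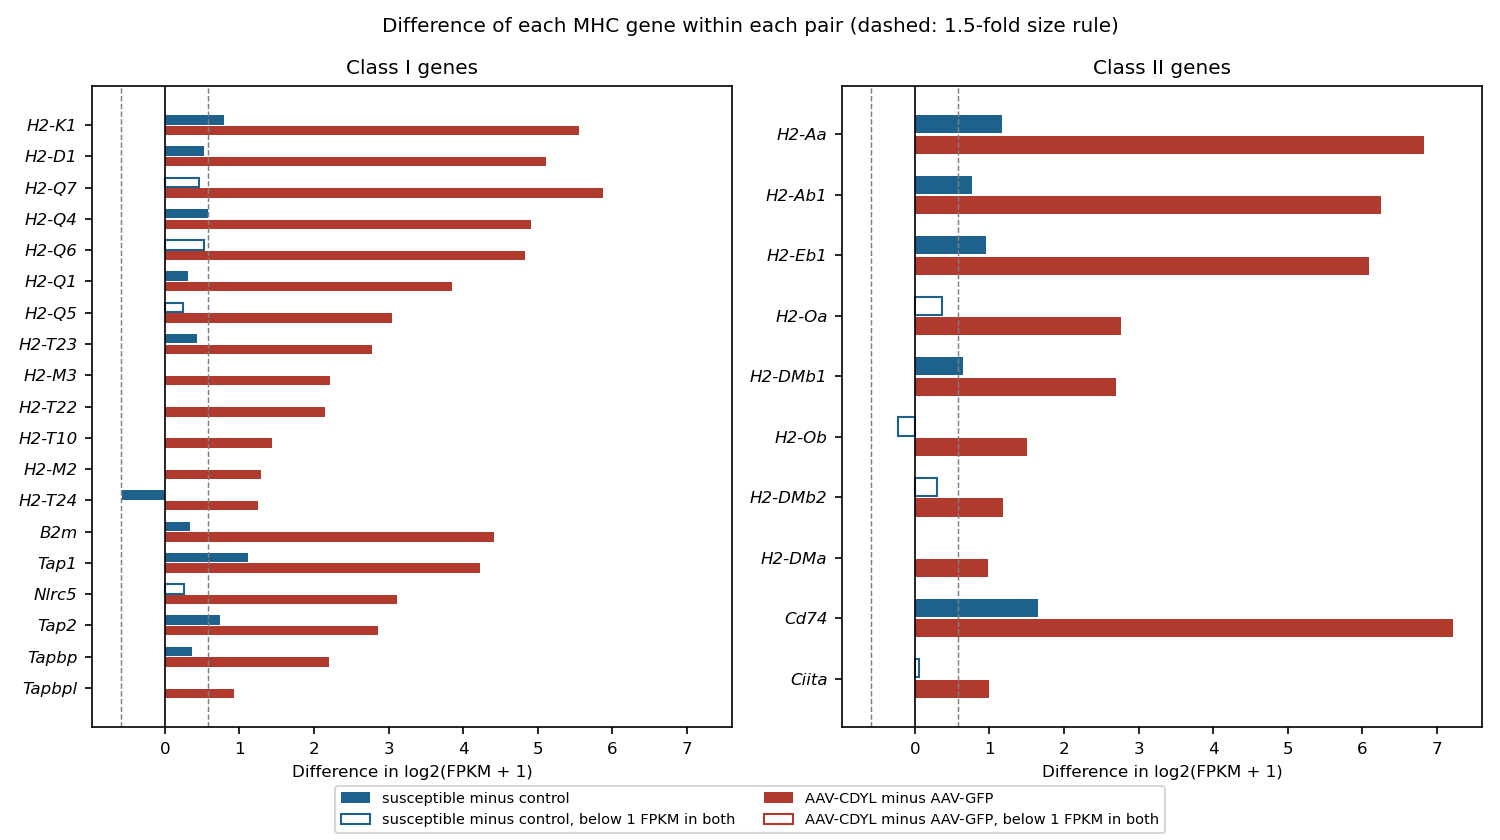
Difference in log2(FPKM + 1) (x axis) for each named member (y axis) in the stress pair and the AAV pair, with open bars for genes under 1 FPKM in both libraries and dashed lines at the 1.5-fold rule. Class II chains run from 0.98 for H2-DMa to 6.83 for H2-Aa in the AAV pair, and no listed difference of the stress pair exceeds the 1.65 of Cd74.

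The balance of the classes differed between libraries. Summed over the heavy chain genes listed, class I stood at 54.5 FPKM in AAV-GFP and 1288 in AAV-CDYL, and the class II chains at 11.7 and 380 FPKM. Class II chains were then 17.7% of the summed chain FPKM in AAV-GFP and 22.8% in AAV-CDYL. H2-DMa made up most of the AAV-GFP value, and over the genes listed in both tables, which leave it out, the shares were 4.55% and 22.7%. Over members in unshared loci, which keep H2-DMa and leave out the T region genes named above, the direction turned, with 32.1% in AAV-GFP and 26.2% in AAV-CDYL. Over the genes listed in both tables the classical H2-K1 and H2-D1 made up 46.4% in AAV-GFP and 56.6% in AAV-CDYL, the T region 42.3% and 7.83%, the Q region 5.71% and 12.8%, and H2-Aa, H2-Ab1 and H2-Eb1 together 2.44% and 21.5%. Over these genes the T region had the largest loss of share and the I-A and I-E chains the largest gain.

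**Figure D4:**
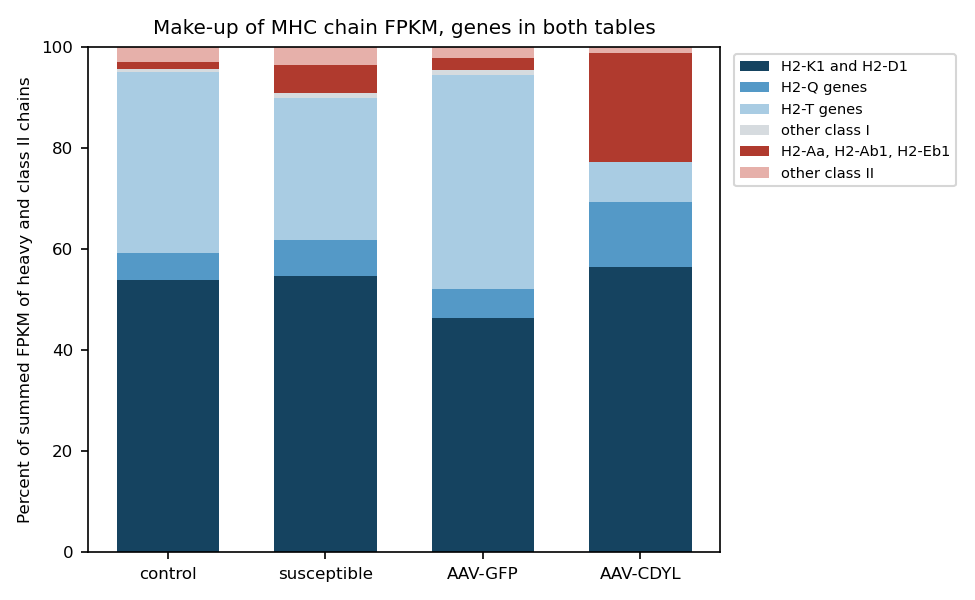
Share in percent of the summed FPKM of class I heavy chain and class II chain genes listed in both tables, for each of the 4 libraries, by gene group. The T region share is 42.3% in AAV-GFP and 7.83% in AAV-CDYL, and the share of H2-Aa, H2-Ab1 and H2-Eb1 is 2.44% and 21.5%.

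In the susceptible library some MHC genes stood above control, with a median difference of 0.86 for the 4 class II chain genes past the floor and 0.48 for the 6 class I heavy chain genes. All 4 class II chain genes passed the floor through the susceptible library alone, while 5 of the 6 class I heavy chains reached 1 FPKM in control. These medians therefore do not show which class differed more. Of the 28 members listed, 15 passed the floor, 8 were higher by size and none lower, with a median difference of 0.64. Of all 5334 genes past the floor, 18.9% were higher and 10.8% lower, and their median difference was 0.24. The 8 were H2-K1, Tap1 and Tap2 on the class I side and H2-Aa, H2-Ab1, H2-Eb1, H2-DMb1 and Cd74 on the class II side. None of these 5 class II genes, nor Tap1, reached 1 FPKM in control, so the floor fixed their direction. Among the 8 members at 1 FPKM or more in control, 2 were higher, H2-K1 and Tap2, against 13.5% of all such genes higher and 12.4% lower. Relative to the all-gene median of 0.24, H2-Aa, H2-Eb1, Tap1 and Cd74 passed the size rule and the other 4 did not. That median turns to -0.29 with the control floor, so this split depends on which genes are left in.

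Cd74 stood at 0.952 FPKM in the control library and at 5.12 FPKM in the susceptible one, a difference of 1.65 and a ratio of 5.38 (3.40 to 9.33) on about 19 and 170 fragments. H2-Aa was at 0.226 and 1.76 FPKM, a difference of 1.17 and a ratio of 7.79 (2.63 to 27.5) on about 4 and 47 fragments. H2-Ab1 was at 0.207 and 1.06 FPKM, a difference of 0.77 and a ratio of 5.13 (1.62 to 18.0). All 3 are low-level genes in control, and their counting intervals are wide but lie above 1. H2-Eb1 was at 0.213 and 1.36 FPKM, a ratio of 6.36 (2.62 to 20.8), and H2-DMb1 at 0.343 and 1.09, a ratio of 3.19 (1.38 to 8.39). H2-Ob went the other way, at 0.331 and 0.134 FPKM, a ratio of 0.404 (0.135 to 0.982) below the floor in both. Ciita was at 0.0390 and 0.0805 FPKM, on about 3 and 11 fragments, and the interval of its ratio, 0.594 to 12.5, includes 1.

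On the class I side H2-K1 stood at 10.2 FPKM in the control library and at 18.4 FPKM in the susceptible one, a difference of 0.79 and a ratio of 1.80 (1.55 to 2.08). H2-D1 was at 15.1 and 22.3, a difference of 0.53 and a ratio of 1.47 (1.32 to 1.64), and B2m at 71.6 and 90.2, a difference of 0.33 and a ratio of 1.26 (1.16 to 1.37). H2-K1 alone of these 3 passed the size rule. Tap1 was at 0.459 and 2.16 FPKM, a difference of 1.11 and a ratio of 4.71 (2.99 to 8.26). Tap2 was at 1.41 and 3.02 FPKM, a difference of 0.74 and a ratio of 2.15 (1.63 to 2.83). As in the AAV pair, the ratio of Tap1 was above that of Tap2, and only Tap2 reached 1 FPKM in the first library. H2-T23 was at 13.9 and 19.2 FPKM and Tapbp at 9.77 and 12.8, both inside the size rule. H2-T24 was at 2.89 and 1.61 FPKM, a difference of -0.57 and a ratio of 0.557 (0.405 to 0.752), just inside the rule. H2-Q4 was at 1.46 and 2.68 FPKM, a difference of 0.58, also just inside it, and H2-Q6 and H2-Q7 stayed under 1 FPKM in both libraries.

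The pairs share no library, and their values for the members stand side by side as follows. The 15 members past the floor in both pairs had a larger difference in the AAV pair than in the stress pair without exception. Of the 3260 genes past the floor in both, 54.3% did. By size 8 of the 15 were higher in both pairs, against 15.1% of those genes. Of these 8, only H2-K1 and Tap2 reached 1 FPKM in both control and AAV-GFP. The others were under 1 FPKM in control, so the floor fixed their direction in the stress pair. The class II chains were 4.26% of the summed chain FPKM in control and 9.12% in susceptible. Without a value in the stress pair were 9 members, H2-DMa, H2-Eb2, H2-M2, H2-M3, H2-M6-ps, H2-Q10, H2-T10, H2-T22 and Tapbpl. The 8 members under 1 FPKM in every library that gives them a value were H2-Bl, H2-Eb2, H2-K2, H2-M10.2, H2-M5, H2-M6-ps, H2-Q10 and H2-Q2. The highest of these was H2-Q10, known as a secreted liver class I molecule, at 0.0101 FPKM in AAV-GFP and 0.866 in AAV-CDYL, and H2-M10.2, of a family known from vomeronasal neurons, was listed at 0 in AAV-CDYL.

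**Figure D5:**
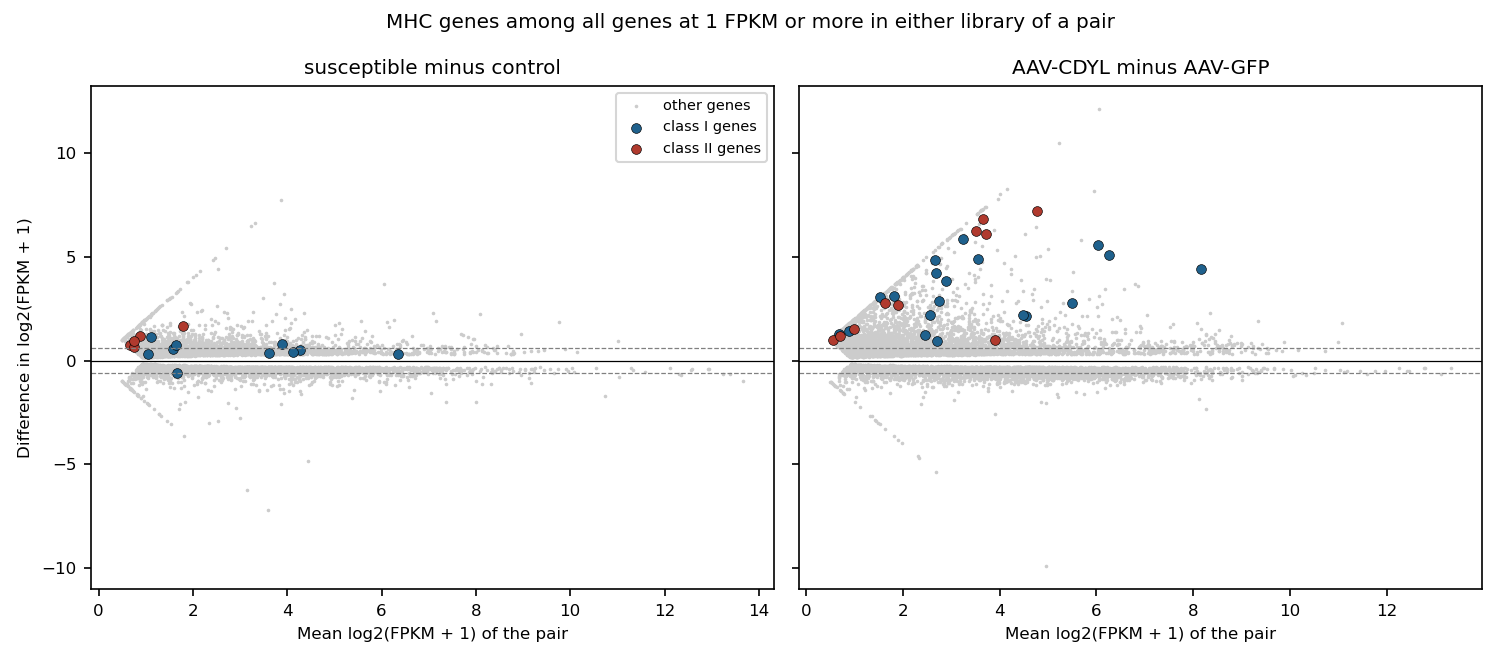
Difference in log2(FPKM + 1) (y axis) against the mean log2(FPKM + 1) of the pair (x axis) for all genes past the floor, grey, with class I members in blue and class II members in red, in the stress pair (left) and the AAV pair (right). On the right all 29 members lie above the dashed 1.5-fold line, from 0.93 for Tapbpl to 7.22 for Cd74.

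The authors' deposited table gives p-values and q-values from a comparison of 1 library with another, which compare those libraries and not the conditions. In the AAV pair the q-value in the authors' deposited table was under 0.05 for 5 members, all higher, against 0.955% of listed genes that were higher and under 0.05. They were B2m, H2-D1, H2-K1 and H2-Q5, each with a q of 0.00727, and H2-T23 with a q of 0.0416, so all were class I. H2-Q5 among them is annotated as a polymorphic pseudogene. There were 19 members higher with a p-value under 0.05 in the authors' deposited table, against 5.16% of listed genes. In the stress pair the authors' deposited table has no member with a q-value under 0.05, with 0.284% of listed genes higher and under it. Its p-value was under 0.05 for 4 members, Cd74 at 0.0163, H2-Aa at 0.041, H2-K1 at 0.0242 and Tap1 at 0.0074, against 3.12% of listed genes. For H2-Aa in the AAV pair the authors' deposited table gives a p of 0.0545 and a q of 0.999 despite the largest ratio of the class.

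Genes that supply peptides to MHC molecules were also higher in AAV-CDYL. Of the 9 genes of the class I supply list, 6 were listed and past the floor. All 6 were higher, against 31.3% of all genes. At 1 FPKM or more in AAV-GFP 5 of 5 were higher, against 21.2%. They included the immunoproteasome subunit Psmb8, at 1.37 and 63.5 FPKM. Psmb9, another such subunit, was at 0.649 and 22.4 FPKM and passed the floor only through AAV-CDYL. In the stress pair 2 of the 3 listed were higher, against 18.9% of all genes past the floor. These were Psmb8 at 1.67 and 4.47 FPKM and Psmb9, under the floor in control, at 0.421 and 2.41 FPKM. Both lie beside Tap1 and Tap2 and share a Cuffdiff locus with them. Of the class II supply and co-stimulation list, 6 of 6 past the floor were higher in AAV-CDYL, and 4 of 4 at 1 FPKM or more in AAV-GFP. They included the invariant chain protease Ctss at 30.0 and 401 FPKM and the thiol reductase Ifi30 at 1.73 and 34.2 FPKM. The co-stimulatory ligand Cd86, at 0.578 and 7.02 FPKM, passed the floor only through AAV-CDYL, as did Cd40. Of the 5 listed in the stress pair, 3 passed the floor and 2 were higher, Ctss at 33.4 and 51.5 FPKM and Ifi30 at 1.92 and 4.72 FPKM.

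Of 16 known regulators of these promoters, 10 were listed in the AAV pair. Of the 9 past the floor, 6 were higher in AAV-CDYL and 1 lower, against 31.3% and 14.4% of all genes. Of the 8 at 1 FPKM or more in AAV-GFP, 5 were higher and 1 lower, against 21.2% and 17.4%. Irf1, an interferon-induced transcription factor, was at 2.79 FPKM in AAV-GFP and 21.2 in AAV-CDYL. Among subunits of the factor that binds the Y box, Nfyb was lower at 35.6 and 21.4 FPKM and Nfya higher at 8.88 and 14.1 FPKM. Ifng, which encodes interferon gamma, was listed at 0 in AAV-GFP and at 0.534 in AAV-CDYL, under the floor in both. In the stress pair 5 regulators were listed, and 1 of the 3 past the floor was higher, against 18.9% of all genes. This was Irf1 at 2.97 and 4.98 FPKM.
Among receptors that bind MHC molecules or signal with those that do, 7 of the 10 listed were at 0 in AAV-GFP. Only Lag3, a receptor for class II, reached 1 FPKM there, and it was at 2.04 and 40.3 FPKM. The other 8 genes past the floor passed it through AAV-CDYL alone, so their direction was fixed by the floor. Cd3d, Cd3e, Cd3g and Cd8a are also in the T cell marker list. In the stress pair Cd4 was at 0.137 and 1.25 FPKM, past the floor only through the susceptible library.

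Many markers of cells that carry MHC molecules stood higher in AAV-CDYL than in AAV-GFP, and their part in the results was not tested. In the AAV pair the microglial markers summed to 106 FPKM in AAV-GFP and 608 in AAV-CDYL. Of the 6, 5 were higher, against 21.2% of all genes at 1 FPKM or more in AAV-GFP. P2ry12, a marker of resting microglia, was at 23.4 and 29.7. C1qa, at 32.6 and 404 FPKM, makes up most of the AAV-CDYL sum of the microglial markers. The T cell and cytotoxic markers summed to 0.0352 and 23.8 FPKM, with 5 of 6 at 0 in AAV-GFP. Ptprc, carried by all leukocytes, was at 0.553 and 11.6 FPKM. The dendritic and B cell markers summed to 0.929 and 19.2 FPKM, of which Itgax gave 0.0217 and 12.5, while Flt3 was at 0.669 and 0.919 and the B cell marker Ms4a1 at 0.0584 and 0.453 FPKM. None of the genes in these lists of lymphoid and dendritic markers reached 1 FPKM in AAV-GFP, so those past the floor could only be higher. Astrocyte markers summed to 31.1 and 455 FPKM, with Gfap at 5.85 and 386, while Aldh1l1 was at 15.1 and 24.9. The sums were 543 and 2086 FPKM for oligodendrocyte markers, 33.6 and 61.9 for endothelial markers and 1611 and 1063 for excitatory neuron markers. In bulk tissue more cells of a type and more RNA per cell cannot be told apart.

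In the stress pair the microglial markers were not higher in the susceptible library. They summed to 88.6 FPKM in control and 79.4 in susceptible, with none of 4 higher and 1 lower. The lower gene was P2ry12, at 25.4 and 7.85 FPKM. The others were inside the size rule and differed in direction. The ratio was 1.35 for C1qa, 0.727 for Cx3cr1 and 0.739 for Tmem119. The dendritic and B cell markers summed to 0.296 and 0.274 FPKM with none of the 3 listed past the floor, and no T cell marker was listed. Of all genes at 1 FPKM or more in control, 13.5% were higher and 12.4% lower. Oligodendrocyte markers summed to 509 and 1287 FPKM with 4 of 4 higher. Endothelial markers summed to 31.2 and 87.8 FPKM with 2 of 3 higher, and astrocyte markers to 25.6 and 55.3 with 1 of 3 higher. The differences in these last sums came mostly from 1 gene each. These were Vwf at 3.98 and 45.3 FPKM and Gfap at 2.92 and 31.03 FPKM. The endothelial Cldn5 was inside the size rule, as was the astrocyte marker Aqp4, at 9.87 and 6.36 FPKM. The excitatory neuron marker listed, Neurod6, was lower at 87.1 and 53.3 FPKM. Whether tissue makeup differed, and its part in the MHC values, was not tested.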

How the data were processed

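RNA-seq of 4 prelimbic cortex libraries, 1 per group, was analysed from 2 tables. The authors deposited FPKM values per gene, made with Cuffdiff on build mm10 per the submitters' processing notes; no aligner, annotation or version is stated in these sources. P-values and q-values are the authors' own, as deposited. Each table has its own normalization, and every difference is within a table; levels set across tables are descriptive. Depth was estimated from low FPKM of single-transcript genes of 3 to 20 kb, whose values fall in steps of 1 fragment; between 93.3% and 95.8% of those below 4.5 steps were whole within 0.15. At 1 FPKM a transcript of 2 kb was backed by 28.8 to 48.0 fragments. Estimated fragments, from the longest coding transcript, gave intervals chosen after seeing the data. Differences used a pseudocount of 1, a floor of 1 FPKM and a 1.5-fold rule, checked on simulated data. Members at 1 FPKM or more in any library (29) are named with values. The members and lists were chosen with earlier results of these data known. Python 3.11.15, pandas 2.3.3, scipy 1.17.1 and matplotlib 3.10.9 were used. Values of some listed marker and regulator genes are not reported here.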

Additional observations from a re-analysis of the deposited data

How the results depend on the processing

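Each choice was changed alone. Centring subtracts the all-gene median, whose sign depends on the floor because genes with small ratios are absent. Counts after centring are given to show that dependence only. In the AAV pair every MHC member past the floor stayed higher by size under pseudocounts of 0.1 and 0.5, centring and upper-quartile scaling; under a 2-fold rule H2-DMa, Tapbpl and Ciita did not pass. A floor of 1 FPKM in AAV-GFP left 13 members higher, 7 class I heavy chains and 1 class II chain, and leaving out members in a shared locus, chosen after seeing the data, left 17 and 8 class I heavy chains. The authors' p-value gave 19. Of all genes, 1416 were higher with a floor of 5, 1417 with the AAV-GFP floor, 1424 by 2-fold and 1630 after centring, and 145 were lower by 2-fold and 3572 after centring.

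The stress pair depended more on these choices. Higher members numbered 2 with a floor of 5, 2 with the control floor, 3 by 2-fold, 4 after centring and 4 by the authors' p-value; 1 was lower, H2-T24, with a pseudocount of 0.1 or 0.5 and after centring (1 class I heavy chain each). The members' median was 0.36 with no floor, 0.48 with a floor of 5 or the control floor, 0.40 after centring, and 0.64, no longer past the rule, by 2-fold. Class I heavy chains higher numbered 2 with either pseudocount, 0 by 2-fold, 0 after centring and 3 by upper-quartile scaling. Class II chains higher numbered 1 by 2-fold and 2 after centring, with a median of 0.86 under the 2-fold rule. No class II gene was left with a floor of 5 or the control floor apart from Cd74 at the former. Of all genes, 483 were higher with a floor of 5, 627 with the control floor, 366 by 2-fold and 532 after centring, and 136 were lower by 2-fold and 1918 after centring. After centring Ciita was at -0.19 and H2-Q5 at -0.0056. Without shared loci the class II share was 6.45% in control, 12.5% in susceptible, 32.1% in AAV-GFP and 26.2% in AAV-CDYL, which turns the direction in the AAV pair. B2m per H2-K1 plus H2-D1 was 2.82, 2.22, 2.97 and 1.48 in the same order. No paired analysis was possible because each group has 1 library. Depth limits the ratios of class II genes in control and AAV-GFP, which rest on few fragments.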

Other observations

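The subunit ratios within MHC complexes varied between libraries. The FPKM of H2-Aa for each FPKM of H2-Ab1, its partner chain, was 1.09 in control, 1.66 in susceptible, 0.624 in AAV-GFP and 1.36 in AAV-CDYL, with about 4 to 8 fragments behind each gene in control and AAV-GFP. The FPKM of Cd74 for each FPKM of H2-Aa, H2-Ab1 and H2-Eb1 together was 1.47, 1.22, 1.16 and 0.984 in the same order. H2-D1 for each FPKM of H2-K1 was 1.48, 1.21, 1.41 and 1.00.

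In the authors' deposited table for the AAV pair the smallest q-values did not go with the largest ratios. H2-T23, with a ratio of 7.21, has a q of 0.0416 there, while Cd74, with a ratio of 266, has a q of 0.0642 and H2-Ab1, with a ratio of 323, a p of 0.0562.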
